A study of Mus musculus with 4 samples.

Results

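The neural lineage genes described here are 36 named genes of neural progenitors, proneural transcription, Notch signalling and neurons. They were taken from a fixed list of gene names and matched to the count table by name. The matching used no values, but the genes were chosen with earlier results of these data known. All 36 were found among the 56748 genes listed in the table. The data are RNA-seq of E14, a line of mouse embryonic stem cells (mESCs), in 4 libraries. WT1 and WT2 were wild-type cells, and KO1 and KO2 were Npac KO cells, each KO library from its own clone, made by CRISPR-Cas9 with guides against exon 3 of Npac. Npac, listed as Glyr1, encodes a chromatin reader protein, and the comparison asks how its loss changes gene expression in mESCs. Per the study's methods, all cells were kept without feeders in serum medium with LIF, which holds mESCs undifferentiated, so none of the 4 libraries came from cells directed to a neural fate. The labels give no age, treatment or time point, and they do not say whether WT1 and WT2 were separate cultures, so the p-values below measure only the spread between these samples, which may be technical.

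During neural development, proneural basic helix-loop-helix (bHLH) factors such as Neurog1 commit progenitors to the neuronal fate. They do so in part by switching on Delta-like ligands, which act through Notch receptors and Hes factors to keep neighbouring cells as progenitors. Neurons then build a cytoskeleton and synapses from proteins that other cells hardly make, and the repressor REST keeps many of those neuronal genes silent in non-neuronal cells, mESCs included. In bulk RNA, more cells of a given type and more RNA per cell cannot be told apart, and this holds for every value below.

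The promoters of called genes are shown because Olig2 and Neurog1, described below, went from 3 reads or fewer per WT library to 94 or more per KO library, and a reader can compare the base composition at their starts with that of other genes. Of the 36 genes, 26 had an entry in the RefSeq promoter table of the GRCm38.p6 build, and of the 7 genes called below, Olig2, Neurog1, Neurod1 and Elavl3 had one. The 250 bases before the annotated start are given 5′ to 3′ on the gene's own strand, with every CpG in capitals. Olig2 lies on the plus strand at chr16:91225300-91225549, Neurog1 on the minus strand at chr13:56252181-56252430, Neurod1 on the minus strand at chr2:79456637-79456886 and Elavl3 on the minus strand at chr9:22052024-22052273. Gfap, on the minus strand at chr11:102897201-102897450, was added after its value was seen, as an uncalled gene with few CpGs.
Olig2: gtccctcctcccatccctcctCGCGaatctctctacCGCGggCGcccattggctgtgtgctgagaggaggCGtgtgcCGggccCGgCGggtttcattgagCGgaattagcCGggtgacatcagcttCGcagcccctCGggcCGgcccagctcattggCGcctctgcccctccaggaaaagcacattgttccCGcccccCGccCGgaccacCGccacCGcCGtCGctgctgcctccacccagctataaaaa
Neurog1: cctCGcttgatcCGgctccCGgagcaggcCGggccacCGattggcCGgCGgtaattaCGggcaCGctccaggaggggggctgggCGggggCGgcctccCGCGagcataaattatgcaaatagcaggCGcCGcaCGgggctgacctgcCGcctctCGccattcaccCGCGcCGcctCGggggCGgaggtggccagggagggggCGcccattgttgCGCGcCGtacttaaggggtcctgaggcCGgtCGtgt
Neurod1: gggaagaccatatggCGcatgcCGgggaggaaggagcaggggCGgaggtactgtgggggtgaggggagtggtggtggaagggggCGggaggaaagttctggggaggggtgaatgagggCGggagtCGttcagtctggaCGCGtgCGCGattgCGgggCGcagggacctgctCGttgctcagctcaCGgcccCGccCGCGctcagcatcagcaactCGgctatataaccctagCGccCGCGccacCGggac
Elavl3: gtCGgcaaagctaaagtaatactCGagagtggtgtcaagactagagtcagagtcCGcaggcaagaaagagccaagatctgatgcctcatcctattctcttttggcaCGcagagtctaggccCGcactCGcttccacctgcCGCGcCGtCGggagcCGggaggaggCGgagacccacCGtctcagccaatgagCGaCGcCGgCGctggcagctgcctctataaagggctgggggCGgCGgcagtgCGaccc
Gfap: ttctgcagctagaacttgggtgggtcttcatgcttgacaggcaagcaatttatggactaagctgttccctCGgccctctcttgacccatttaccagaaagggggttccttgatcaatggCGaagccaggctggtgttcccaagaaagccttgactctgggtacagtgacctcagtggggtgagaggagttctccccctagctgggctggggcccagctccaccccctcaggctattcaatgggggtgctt
These windows held 22 CpGs for Olig2, 29 for Neurog1, 22 for Neurod1 and 20 for Elavl3, but 2 for Gfap, which was picked for its few CpGs. Promoters rich in CpGs were not particular to the called genes, since a window of each of the uncalled genes Map2 and Gli3 held 34 and a window of the untested gene Hes5 held 32. The median over all 32851 promoters of the table was 6 CpGs, and over the 35 promoters of the 26 matched genes it was 13. A CpG ratio, observed over expected, above 0.6 was found in 51.4% of these 35 promoters and in 34.0% of all promoters. The E-box CANNTG, the letters that bHLH factors recognise, was present on either strand in 57.1% of the 35 promoters and 66.2% of all promoters. The form CAGCTG, which is contained in CANNTG, was present in 25.7% and 13.0%. The CACNAG or CTNGTG box bound by Hes factors was present in 34.3% and 36.7%. No E-box letters occurred in the Olig2, Neurog1 or Gfap windows, while the Neurod1 window held 1 (CATATG) and the Elavl3 window 2 (CACCTG and CAGCTG). These shares are descriptions of the windows and were not tested.

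Each library held 15850805 to 16965120 reads assigned to genes, and 32685 genes had at least 1 read. Of these, 18157 passed the filter on low counts and were tested with edgeR (quasi-likelihood test), with p-values adjusted by Benjamini-Hochberg over all of them. A gene was called when its adjusted p was below 0.05 and its fold change above 1.5. Glyr1 itself had 3961 and 3115 reads in WT1 and WT2 and 744 and 888 reads in KO1 and KO2, so that RNA from the targeted gene remained at 22.7% of the WT level (log2 fold change -2.14, SE 0.23, edgeR adjusted p = 0.00174). Genes on chromosomes 8 and 11 stood apart from the rest in both KO libraries. Of 2434 tested genes there, 645 were called higher and 111 lower, with a median log2 fold change of 0.50, and Tubb3 (chromosome 8), Gfap, Mapt and Ngfr (chromosome 11) lie on them. The 36 genes as a whole lie on 15 chromosomes.

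Across the list, 27 genes passed the filter, and 6 were called higher in Npac KO cells, 1 lower and 20 neither. Among all tested genes, 11.0% were called higher, 10.7% lower and 21.7% in either direction, against 22.2% higher and 3.70% lower among the 27. Olig2, Neurog1 and Snap25 passed the filter only through their reads in Npac KO cells, and such genes had to differ. Of the other 24, 3 were called higher, namely Neurod1, Stmn2 and Elavl3, beside 11.0% of all tested genes. The median log2 fold change of the 27 genes was 0.33, against 0.0015 for all tested genes. Both KO libraries lay above both WT libraries for 14 of the 27 genes and below them for 6, and for 7 the genotypes overlapped. Among all tested genes, 33.2% lay above and 32.6% below. Olig2, Neurog1 and Snap25, which had to differ, count in the median of the 27 genes and among the 14.

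**Figure D1:**
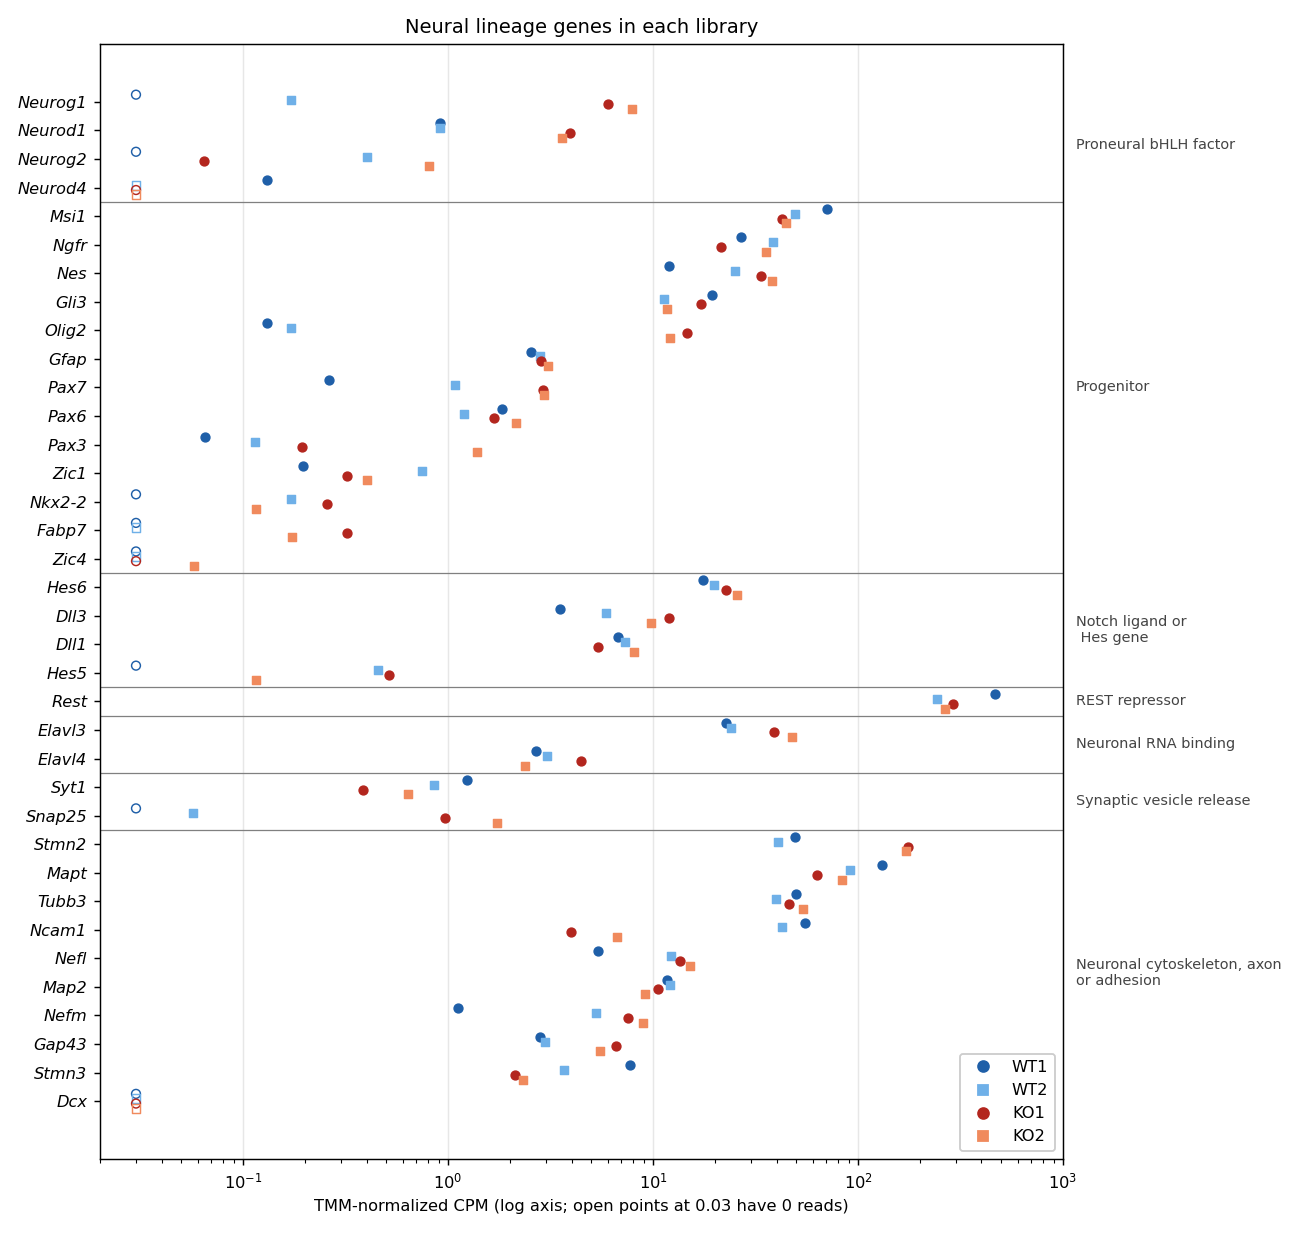
TMM-normalized CPM of the 36 genes in each library on a log axis, grouped by role, where filled points are measured values and open points at 0.03 mark libraries with 0 reads. Blue points are WT and red or orange points Npac KO, and the KO points stand clear to the right for Olig2, Neurog1, Neurod1 and Stmn2 and to the left for Ncam1, while most other genes have all 4 points close together.

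Of the 4 proneural bHLH factors, 2 were tested and both were called higher, against 11.0% of all tested genes. Both had levels close to 0 in WT cells, and Neurog1 passed the filter only through Npac KO. Neurog1 (ENSMUSG00000048904), which starts the formation of cranial sensory neurons, had 0 and 3 reads in WT1 and WT2 and 94 and 137 reads in KO1 and KO2. The KO libraries lay well above the WT libraries, and the ratio of the summed reads, scaled by library size, was 76.8 with a 95% exact binomial interval of 25.9 to 375. Intervals of this kind and limits from counts of 0 cover counting error only. The fitted log2 fold change of Neurog1 was 6.15 (SE 0.78, edgeR adjusted p = 0.00321), and with so few WT reads its size depends on the prior count of the fit and is no bound. Neurod1 (ENSMUSG00000034701), which acts downstream of the neurogenins and drives neuronal differentiation, had 14 and 16 reads in WT cells and 61 and 62 reads in Npac KO cells. Its level rose from 0.914 ± 0.001 CPM to 3.75 ± 0.243 CPM (SD, n = 2 libraries each), with the libraries of each genotype close together and no overlap. The log2 fold change of Neurod1 was 2.03 (SE 0.46, edgeR adjusted p = 0.0209). Neurod1 was not called when either KO library was left out, with an edgeR adjusted p of 0.158 without KO1 and 0.111 without KO2, nor in the limma fit to FPKM without filter (0.0899). The whole Neurod1 span of 4231 bases lies within that of Cerkl on the same strand. Reads of overlapping genes could not be separated here, although Cerkl itself had 85, 41, 23 and 37 reads in WT1, WT2, KO1 and KO2.

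The other proneural factors were close to the limit of detection. Neurog2, a relative of Neurog1 that specifies cortical and spinal neurons, had 0, 7, 1 and 14 reads in WT1, WT2, KO1 and KO2, so the genotypes overlapped. Neurod4 had 2 reads in WT1 and 0 in the other libraries. Neither passed the filter, and no comparison was made for them.

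Among the progenitor genes, 8 of 13 passed the filter and 1 of these, Olig2, was called higher, against 11.0% of all tested genes. Olig2 passed the filter only through its reads in Npac KO cells. Olig2 (ENSMUSG00000039830), a bHLH repressor of motor neuron and oligodendrocyte progenitors, had 2 and 3 reads in WT1 and WT2 and 227 and 210 reads in KO1 and KO2. The Olig2 level was 0.151 ± 0.029 CPM for WT and 13.3 ± 1.75 CPM for Npac KO (SD, n = 2). The ratio of summed reads was 87.1 with a 95% exact binomial interval of 37.1 to 269.7. The fitted log2 fold change was 6.38 (SE 0.49, edgeR adjusted p = 0.000529). As for Neurog1, the size of this fitted change depends on the prior count, and Olig2 had to differ to be tested. By FPKM, which allows levels of different genes to be compared, Olig2 went from place 25 among the 27 tested genes in WT cells (0.0594 FPKM) to place 10 in Npac KO cells (5.23 FPKM). Neurog1 went from place 26 (0.0505 FPKM) to place 12 (4.09 FPKM).

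Nes and Pax7 were higher in both KO libraries, but neither passed the edgeR test. Nes encodes nestin, the intermediate filament of neural progenitors, and had 183 and 439 reads in WT cells and 526 and 659 reads in Npac KO cells. The WT libraries of Nes differed from each other by a log2 value of 1.07, more than the log2 fold change of 0.95 between the genotypes (SE 0.34, edgeR adjusted p = 0.0817). Without WT1 the Nes log2 fold change was 0.49, and without WT2 it was 1.58 and passed the test. DESeq2 called Nes higher with all 4 libraries (adjusted p = 0.0406), and over the alternatives with all libraries its adjusted p ran from 0.00349 to 0.206. Pax7, a paired-box factor of the dorsal neural tube and neural crest, had 4 and 19 reads in WT cells and 45 and 51 in Npac KO cells (log2 fold change 2.08, SE 0.66, edgeR adjusted p = 0.0585). Its WT libraries also lay far apart, and its log2 fold change ran from 1.39 to 3.44 over the fits that each left out a library.

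The other tested progenitor genes differed little or overlapped. Pax6, a master regulator of eye and cortical progenitors, had 28, 21, 26 and 37 reads in WT1, WT2, KO1 and KO2. Gfap, the intermediate filament of radial glia and astrocytes in the mouse, had 39, 49, 44 and 53 reads. Gli3, the transcription factor that mediates repression when Hedgehog signalling is off, had 298, 197, 266 and 202 reads. The genotypes overlapped for Pax6 and Gli3, and for Gfap the KO libraries lay just above the WT libraries (2.55 and 2.80 CPM in WT1 and WT2, 2.83 and 3.06 CPM in KO1 and KO2). The log2 fold changes were 0.33 for Pax6 (edgeR adjusted p = 0.668), 0.14 for Gfap (0.843) and -0.10 for Gli3 (0.867). With the shift of each chromosome removed, the log2 fold change of Gfap was -0.36. Msi1, an RNA-binding protein of neural stem cells, had 1074, 862, 665 and 773 reads, so that both KO libraries lay below both WT libraries, but it was not called (log2 fold change -0.45, SE 0.22, edgeR adjusted p = 0.179). Ngfr, the p75 neurotrophin receptor found on neural crest cells, had 409, 673, 333 and 618 reads. Each genotype held a low and a high library of Ngfr, with a log2 fold change of -0.19 (SE 0.30, edgeR adjusted p = 0.681). With the shift of each chromosome removed it was -0.68 (edgeR adjusted p = 0.156).

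A further 5 progenitor genes had too few reads to compare. Zic1, a factor of the dorsal neural tube, had 3, 13, 5 and 7 reads in WT1, WT2, KO1 and KO2, and its neighbour Zic4 had 1 read, in KO2. Nkx2-2, a ventral neural tube factor, had 0, 3, 4 and 2 reads. Pax3, a dorsal neural tube and neural crest factor, had 1, 2 and 3 reads in WT1, WT2 and KO1 but 24 in KO2, so the 2 KO lines differed for this gene. Fabp7, a fatty acid binding protein of radial glia, had 0 reads in both WT libraries and 5 and 3 in KO1 and KO2. The gene spans of Zic1 and Zic4 share 3398 bases on opposite strands, and the strand setting of the counting is not given in the sources used here.

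None of the 3 tested Notch ligands and Hes genes on the list was called by edgeR, although 1 of them, Dll3, had an unadjusted p below 0.05 and was called by DESeq2. Dll1, the Delta-like ligand that newborn neurons present to their neighbours, had 103, 127, 84 and 140 reads in WT1, WT2, KO1 and KO2 with overlap (log2 fold change -0.05, SE 0.36, edgeR adjusted p = 0.932). Dll3, a Delta-like protein that acts within the cell, had 54, 103, 187 and 169 reads. Both KO libraries of Dll3 lay above both WT libraries, at a log2 fold change of 1.20 that missed the threshold (SE 0.38, edgeR adjusted p = 0.056). Hes6, a Hes relative that promotes neuronal differentiation, had 268, 348, 352 and 447 reads, with the KO libraries just above the WT libraries (log2 fold change 0.37, SE 0.23, edgeR adjusted p = 0.273). Hes5, a direct Notch target, had 0, 8, 8 and 2 reads and was not tested.

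Rest was the most abundant of the 27 tested genes in both genotypes, at 49.0 FPKM in WT cells and 38.2 FPKM in Npac KO cells. It had 7154 and 4267 reads in WT1 and WT2 and 4532 and 4596 in KO1 and KO2, so the KO libraries fell between the WT libraries. The log2 fold change was -0.36 (SE 0.30, edgeR adjusted p = 0.420), and it was 0.16 without WT1 and -0.75 without WT2, where it passed the test. The direction for Rest therefore depended on which WT library was used.

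**Figure D2:**
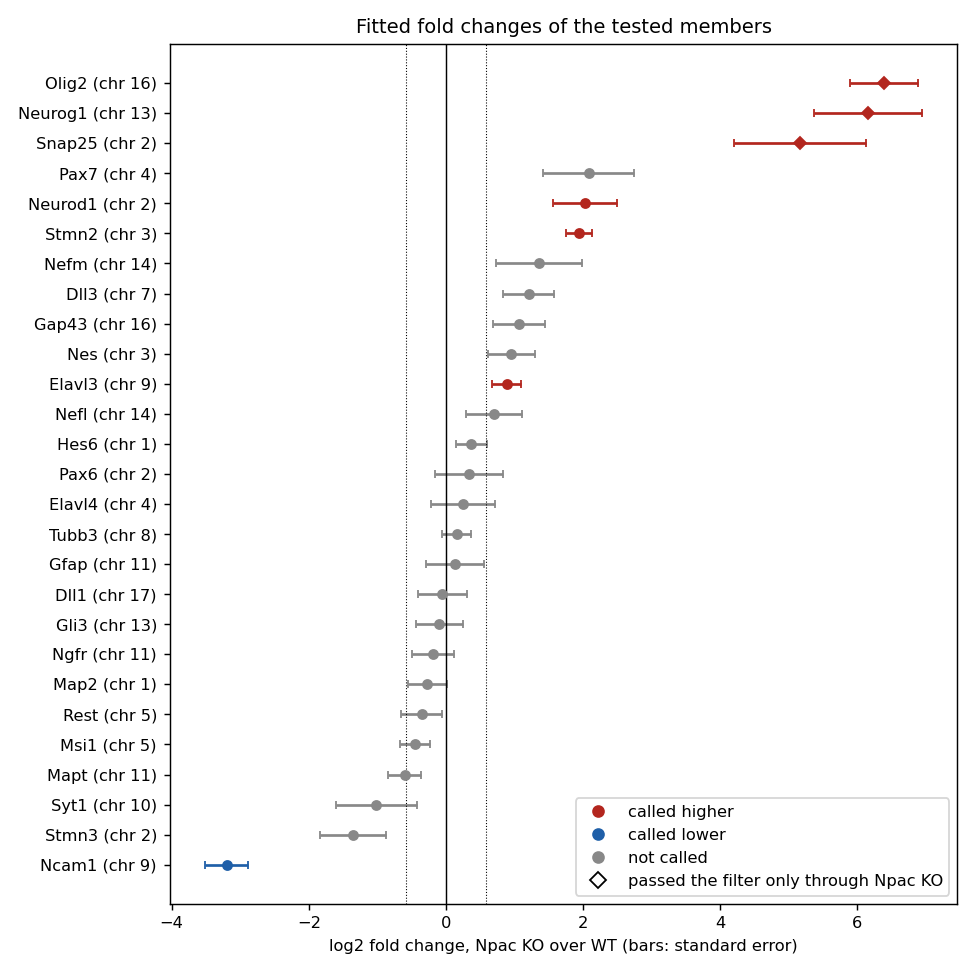
Fitted log2 fold change, Npac KO over WT, of each of the 27 tested genes with its standard error, where dotted lines mark the fold change threshold of 1.5 in either direction and diamonds mark genes that passed the filter only through Npac KO. Called genes are red when higher and blue when lower, and they run from 6.38 for Olig2 to -3.20 for Ncam1, with the 20 uncalled genes in between.

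Genes of neuronal RNA binding and synaptic release gave 2 calls among 4 tested, against 21.7% called among all tested genes, and 1 of the 2, Snap25, passed the filter only through Npac KO. Elavl3 (ENSMUSG00000003410), an RNA-binding protein that stabilises neuronal transcripts, had 348 and 420 reads in WT cells and 606 and 822 in Npac KO cells. Its level rose from 23.4 ± 0.876 CPM to 43.2 ± 5.99 CPM (SD, n = 2) without overlap, a log2 fold change of 0.89 (SE 0.21, edgeR adjusted p = 0.0232). The call for Elavl3 was lost without KO1 (edgeR adjusted p = 0.0956) and without KO2 (0.246), and in each of the fits to FPKM. Its relative Elavl4 had 41, 53, 69 and 41 reads in WT1, WT2, KO1 and KO2 and overlapped (log2 fold change 0.25, SE 0.47, edgeR adjusted p = 0.738). Snap25 (ENSMUSG00000027273), a SNARE protein of synaptic vesicle fusion, had 0 and 1 reads in WT cells and 15 and 30 in Npac KO cells. The ratio of summed Snap25 reads was 44.9 with a wide 95% exact binomial interval of 7.65 to 1811, and its fitted log2 fold change of 5.16 (SE 0.97, edgeR adjusted p = 0.0111) was not called without KO2 (0.0915). In the limma fits to FPKM the Snap25 call was also lost with log2(FPKM + 1) (adjusted p = 0.0941) and without filter (0.107). As for Neurog1, the size of the fitted Snap25 change depends on the prior count, and Snap25 had to differ to be tested. Syt1, the calcium sensor of vesicle release, had 19, 15, 6 and 11 reads, with the KO libraries below the WT libraries, and was not called (log2 fold change -1.02, SE 0.59, edgeR adjusted p = 0.248).

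Among the cytoskeletal, axonal and adhesion genes, Stmn2 rose and Ncam1 fell, each by more than the spread between its own replicates. Stmn2 (ENSMUSG00000027500), a microtubule-destabilising protein of growing axons, had 756 and 714 reads in WT cells and 2722 and 2965 in Npac KO cells. Its level went from 45.1 ± 6.11 CPM to 173 ± 2.74 CPM (SD, n = 2), a log2 fold change of 1.94 (SE 0.19, edgeR adjusted p = 0.00119). By FPKM it was in place 7 of the 27 tested genes in WT cells (8.78 and 7.23 FPKM) and in place 2 in Npac KO cells (31.1 and 30.03 FPKM). Ncam1 (ENSMUSG00000039542), the neural cell adhesion molecule, had 846 and 745 reads in WT cells and 62 and 115 in Npac KO cells. Its level fell from 48.9 ± 9.02 CPM to 5.31 ± 1.87 CPM (SD, n = 2), a log2 fold change of -3.20 (SE 0.31, edgeR adjusted p = 0.00117), and by FPKM it moved from place 8 to place 22. Stmn2 and Ncam1 were called under every alternative and with each library left out.

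The other axonal and cytoskeletal genes did not pass the test. Tubb3, the neuronal beta-tubulin, had 764, 694, 714 and 931 reads in WT1, WT2, KO1 and KO2, and the genotypes overlapped (log2 fold change 0.15, SE 0.21, edgeR adjusted p = 0.631). It was in place 2 by FPKM in WT cells, at 23.8 FPKM, in cells not directed to a neural fate. Map2, a dendritic microtubule protein, had 179, 212, 165 and 158 reads, and its KO libraries lay below the WT libraries by too little to pass the test (log2 fold change -0.27, SE 0.29, edgeR adjusted p = 0.526). Mapt, which encodes the axonal microtubule protein tau, had 2001, 1604, 977 and 1455 reads. Its log2 fold change was -0.60 (SE 0.24, edgeR adjusted p = 0.110), and with the shift of each chromosome removed it was -1.09 and was called lower (edgeR adjusted p = 0.0222), while Tubb3 then had a log2 fold change of -0.36. Stmn3, a relative of Stmn2, had 118, 64, 33 and 40 reads (log2 fold change -1.35, SE 0.48, edgeR adjusted p = 0.0818), in the opposite direction to Stmn2 and short of the threshold. Gap43, a growth cone protein, had 43, 52, 103 and 95 reads, with tight pairs and no overlap, but was not called (log2 fold change 1.06, SE 0.38, edgeR adjusted p = 0.0834).

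The neurofilament genes Nefl and Nefm had a low WT1 library. Nefl had 82, 213, 210 and 262 reads and Nefm 17, 92, 117 and 155 reads in WT1, WT2, KO1 and KO2. WT2 lay closer to the KO libraries than to WT1 for both genes, and neither was called, with log2 fold changes of 0.70 for Nefl (SE 0.40, edgeR adjusted p = 0.244) and 1.36 for Nefm (SE 0.63, edgeR adjusted p = 0.159). The Nefm log2 fold change was 0.62 without WT1 and 2.88 without WT2. Their spans share 5233 bases on opposite strands, which is the whole span of Nefl. Without a stated strand setting, the reads of Nefl and Nefm cannot be told apart in that stretch. Dcx, a microtubule protein of migrating neurons, had 0 reads in all 4 libraries, which allows a level of up to 0.171 to 0.196 CPM, the worth of 3 reads in each library.

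The spread between replicates was uneven. The median absolute log2 difference between WT1 and WT2 was 0.51 over the tested neural genes and 0.39 over all tested genes, and between KO1 and KO2 it was 0.27 and 0.23. In 5 genes, Nes, Pax7, Stmn3, Nefl and Nefm, the WT libraries differed by more than 2-fold, and 4 of these were higher in WT2. No tested neural gene differed by more than 2-fold between KO1 and KO2. How many genes were called depended on which library was left out, in the list and over all tested genes.

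**Figure D3:**
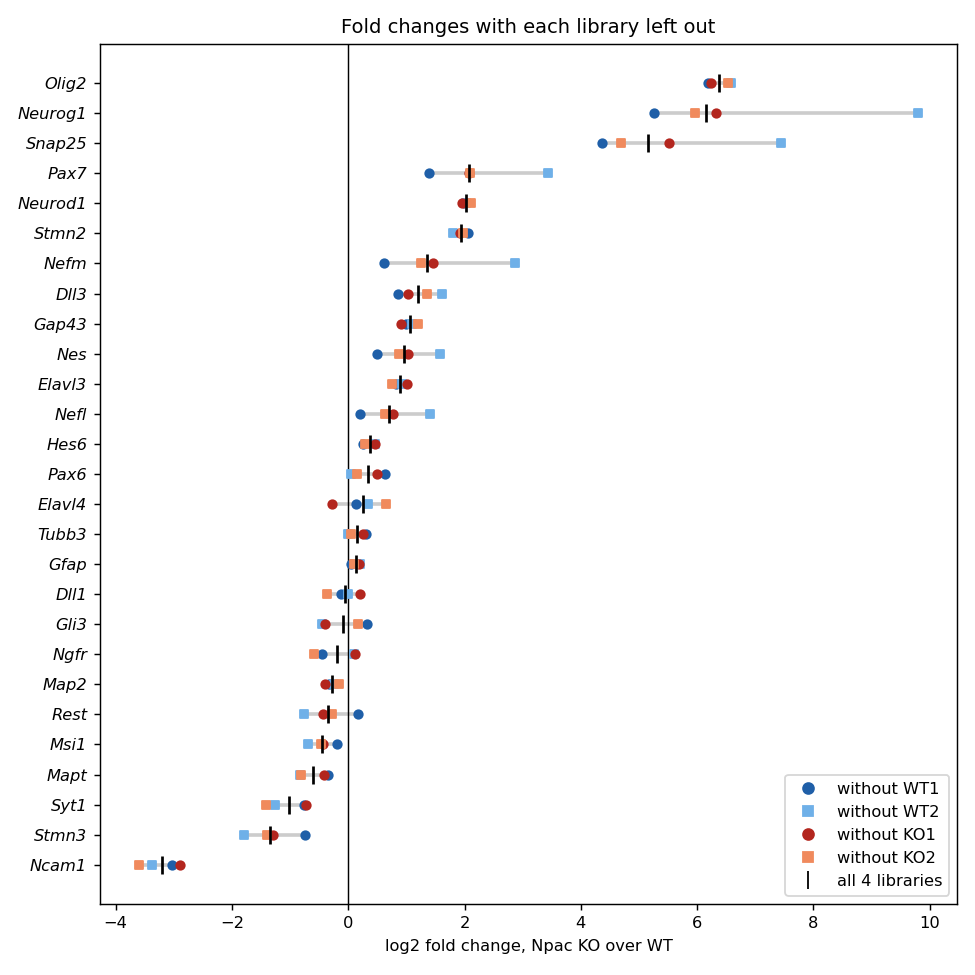
Log2 fold change, Npac KO over WT, of each tested gene with all 4 libraries (black bar) and with each library left out in turn (coloured points). The points of Stmn2, Neurod1 and Olig2 lie close together, while those of Nefm run from 0.62 without WT1 to 2.88 without WT2 and those of Rest lie on both sides of 0.

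Genes of the same pathways were followed in 6 further lists of 144 genes in all. Of these, 128 were tested, and 19 were called higher and 19 lower (14.8% each, against 11.0% and 10.7% of all tested genes), with a median log2 fold change of 0.08. Of 28 tested genes in the Notch list, 4 rose and 4 fell (14.3% each, against 11.0% and 10.7% of all tested genes). The receptor Notch3 rose (782, 1021, 2235 and 2313 reads, log2 fold change 1.34), as did Notch4 (0.88), the ligand Jag1 (81, 86, 310 and 340 reads, log2 fold change 1.95) and the coactivator Maml2 (5, 10, 126 and 83 reads). The Notch target Hes1 fell (1062, 1021, 250 and 384 reads, log2 fold change -1.74), and so did the DNA-binding effector Rbpj (-0.86), Numbl (-0.78) and the gamma-secretase subunit Psen2 (-1.93).

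In the list of bHLH factors and their inhibitors, 3 of 13 tested genes rose and 2 fell. The shares were 23.1% and 15.4%, against 11.0% and 10.7% of all tested genes. Olig1, which lies next to Olig2, rose from 24 and 70 reads to 1094 and 558 (log2 fold change 4.18, SE 0.52, edgeR adjusted p = 0.00299). The bHLH inhibitors moved apart, with Id3 higher (log2 fold change 1.23) and Id2 lower (-1.68), and the E-protein Tcf12, a partner of proneural factors, was lower (-1.39). In the neural plate and progenitor list, 6 of 28 tested genes rose and 5 fell (21.4% and 17.9%, against the same 11.0% and 10.7%). Sox11, a factor of newborn neurons, rose from 171 and 203 reads to 849 and 893 (log2 fold change 2.22), and the midbrain-hindbrain factor En2 from 46 and 55 to 389 and 309 (2.80). En1 (1, 2, 13 and 18 reads), Pou3f2 (0, 2, 23 and 13 reads), Otx1 (log2 fold change 2.41) and Prom1 (1.47) were also higher. Sox1, an early marker of neuroectoderm, fell from 424 and 234 reads to 54 and 80 (log2 fold change -2.34), together with the Hedgehog effectors Gli1 (-1.95) and Gli2 (-1.62), Pou3f1 (-0.88) and Pax8 (-1.37).

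In the lists of differentiated neurons, 4 of 24 and 4 of 19 tested genes were called, against 21.7% of all tested genes. Of the 24 tested cytoskeletal, axonal and RNA-binding genes, Crmp1, a semaphorin signalling protein, was higher (144, 121, 745 and 744 reads, log2 fold change 2.48), and Prph (-2.10), Cntn2 (-1.48) and Tubb2a (-1.28) were lower. On the synaptic and secretory vesicle list, with 19 genes tested, Gdap1 was higher (0, 4, 20 and 30 reads). Cplx2 (log2 fold change -2.68), Cplx1 (-1.52) and Bsn (-1.36) were lower. A place on this list does not show that the product of Gdap1 is a vesicle protein. Of 16 tested corepressors and partners of REST, the deacetylase Hdac1 was higher (2657, 2882, 7726 and 7360 reads, log2 fold change 1.44), with Sin3b (0.81), Smarca4 (0.72) and Ehmt2 (0.70), while the phosphatases Ctdsp1 (-1.75) and Ctdspl (-1.15) were lower. Sin3b and Sox1 lie on chromosome 8 and Otx1 on chromosome 11. Maml2, Pou3f2, En1 and Gdap1 had at most 10 reads in both libraries of WT cells, so no fitted fold change is given for them. Of these 38 calls, 16 held with each library left out in turn.

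**Figure D4:**
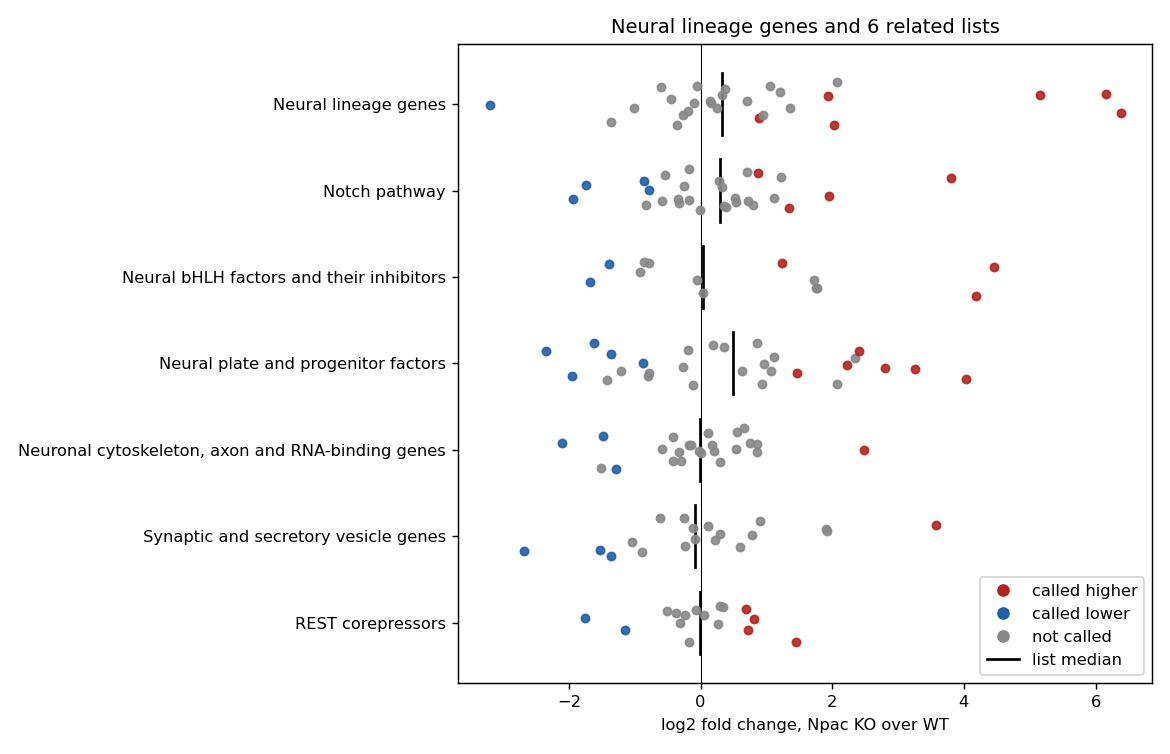
Log2 fold change, Npac KO over WT, of each tested gene of the neural lineage list and of 6 related lists, with a bar at each list's median and with red and blue points for genes called higher and lower. The median is 0.33 for the neural lineage genes and 0.49 for the neural plate and progenitor list, and calls on both sides of 0 occur in every list.

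Markers of the labelled cell type and of other cell types were measured in the same libraries. All 6 mESC markers had reads, and their summed level was 4795 and 3483 CPM in WT1 and WT2 and 2809 and 2595 CPM in KO1 and KO2. Within them, Zfp42 was called lower (log2 fold change -2.64) and Klf2 higher (0.97). The other 4, Pou5f1 (-0.42), Nanog (-0.21), Sox2 (-0.53) and Esrrb, were not called. The median log2 fold change of the 6 was -0.48. The 7 glial markers summed to 68.8 and 79.4 CPM in WT1 and WT2 and to 60.2 and 65.0 CPM in KO1 and KO2, with Aqp4 and S100b at 3 reads or fewer in every library. Of the 5 glial markers tested, 1 was called lower. The 5 neural crest markers summed to 56.3 and 32.1 CPM in WT1 and WT2 and to 22.9 and 19.5 CPM in KO1 and KO2, with Sox10 called higher and Foxd3 lower. The 5 mesodermal markers summed to 3.40, 8.28, 8.22 and 13.3 CPM, the 5 endodermal markers to 8.37, 14.8, 12.3 and 18.5 CPM and the 5 fibroblast markers to 35.7, 58.9, 45.0 and 50.6 CPM in WT1, WT2, KO1 and KO2. Foxa2 and Afp of the endodermal markers, Postn and Dcn of the fibroblast markers and Tfap2b of the neural crest markers had 3 reads or fewer in every library. Of the 3 fibroblast markers tested, 1 was called higher, and no mesodermal or endodermal marker was called. Among all tested genes 21.7% were called in either direction. The part of these cell types in the neural gene values was not tested.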

How the data were processed

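Total RNA of 4 E14 libraries was sequenced by the authors, who mapped reads with HISAT2 (2.0.5 in the submitters' processing notes) and counted them per gene with featureCounts (1.5.0-p3). They deposited raw read counts and FPKM values (counts per gene length and scaled library size) in separate tables. The notes name mm10, but gene starts in the count table did not match a GRCm38 annotation for any of the 36 genes, so no coordinates from it are printed. Strand settings are not given in the sources used here. Genes and lists were chosen with earlier results of these data known.

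Counts were filtered by filterByExpr (minimum count 10), normalized by TMM and tested with edgeR 4.0.16 in R 4.3.3 (glmQLFit, glmQLFTest, no covariate, n = 2 per genotype), adjusted over 18157 genes. CPM are TMM-scaled. Every member was named. From other lists, called genes were named, at most the 5 largest changes in each direction per list. A result that is not reported here was left out of the text. Alternatives used DESeq2 1.42.0, other scalings and filters, a replicate block, chromosome medians and limma 3.58.1 on log2(FPKM + 0.1) and log2(FPKM + 1), a scale that understates changes of low genes. The script was tested on simulated data.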

Additional observations from a re-analysis of the deposited data

How the results depend on the processing

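The neural counts were 6 higher and 1 lower, beside 1999 and 1946 over all genes. They were 8 and 1 with DESeq2 (2016 and 2076 over all genes). With edgeR's likelihood ratio test they were 10 and 2 (2660 and 2635), and without a low-count filter 11 and 3 (2862 and 2799). With at least 10 reads in every library, which removes Olig2, Neurog1, Snap25, Pax7 and Syt1, 3 were called higher (1561 over all genes). The neural counts were 3 higher in the FPKM fit without filter, and 2 lower with chromosome medians removed (1781 lower over all genes). With the replicate number as a block they were 11 and 2, and over all genes 3128 and 2994, against 1999 and 1946, and 31 list genes were called higher against 19. The numbers are not known to pair the libraries (r = 0.33 across 18157 genes between same-numbered deviations, with only 2 pairs), so the block is given here only. The FPKM fit without filter called 609 and 548 genes of all tested and 7 and 3 list genes. The median of 0.33 was 0.21 with at least 10 reads, 0.20 with log2(FPKM + 0.1), with or without filter, and 0.15 with log2(FPKM + 1). With chromosome medians removed, Tubb3 (-0.36), Gfap (-0.36) and Dll1 (0.048) changed sign. Leaving out each library in turn gave 3 to 12 neural genes higher and 1 to 5 lower, 826 to 3571 and 821 to 3384 genes of all tested, 9 to 33 and 9 to 35 list genes, a median of 0.29 to 0.45 and a Glyr1 log2 fold change of -2.39 to -1.87. The sign changed for Rest (-0.75 to 0.16), Gli3 (-0.44 to 0.32, with 0.17 without KO2), Tubb3 (-0.0080 to 0.30), Ngfr (-0.59 to 0.12, with 0.091 without WT2), Dll1 (-0.36 to 0.20) and Elavl4 (-0.28 to 0.65). In these fits the lone library of a genotype is assumed to vary like the other pair. The cause was not tested. Of the 38 list calls, none changed sign, and 10 were called under every alternative with all libraries. With 2 libraries per genotype, a gene that was not called is not shown to be equal, and 9 neural genes were too low to test.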

Other observations

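The 4 protein-coding genes on either side of each of the 7 called neural genes were looked up after the values were seen. Near Olig2, 2 of 6 tested neighbours were called higher, namely Olig1 at 41.1 kb and Cfap298 at 290.3 kb (127, 154, 362 and 395 reads in WT1, WT2, KO1 and KO2, log2 fold change 1.43). Near Neurog1, 3 of 6 were called higher. Tifab, at 71.6 kb, had 1, 0, 39 and 57 reads, so it passed the filter only through Npac KO and had to differ. Pitx1, a homeobox gene of hindlimb and pituitary at 414 kb, had 7, 11, 45 and 86 reads (log2 fold change 2.83). Macroh2a1, a histone variant gene at 114 kb, had a log2 fold change of 0.74. Near Elavl3, 2 of 7 were called higher, Ecsit (log2 fold change 0.64) and Cnn1, a smooth muscle actin-binding protein, with 19, 32, 126 and 119 reads (2.27). Near Stmn2, Tpd52 at 364 kb was called higher among 6 tested (log2 fold change 0.76). Near Ncam1, Ttc12 at 15.9 kb was called lower among 6 tested (657, 784, 309 and 499 reads, log2 fold change -0.85). Near Neurod1, 2 of 5 were called lower. They were the integrin gene Itga4 at 119 kb (148, 196, 46 and 50 reads, log2 fold change -1.84) and Cwc22 at 1506 kb (-0.88). None of the 5 tested neighbours of Snap25 was called by edgeR or DESeq2, and 1 had an unadjusted edgeR p below 0.05. Among all tested genes 11.0% were called higher, 10.7% lower and 21.7% in either direction, and no test of these neighbourhoods was made.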
